A study of Mus musculus with 12 samples.

Results

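Genes whose symbol begins with Kif and a digit, Klc and a digit or Kifc and a digit, together with Kifap3, were followed through the aging mouse testis, which gave 49 genes of the 24516 in the table. They were found by symbol alone, from transcripts that equal, lie within, share a splice junction with or overlap the exons of a RefSeq transcript on the same strand, and 168 transcripts met this rule. RNA came from whole testes of untreated wild-type C57BL/6 mice, 3 of them at each of 4 ages named by month after birth as 3M, 6M, 12M and 18M, and the question of the study was which transcripts change as the testis ages. Each library was taken as 1 mouse, and the libraries held between 50924104 and 71803379 estimated reads. No agent, allele or transgene separated the groups, and the age was the only label that differed. Of the 49 genes, 41 bear the symbol of a kinesin motor. The other 8 do not encode a motor chain: Klc1 to Klc4 are kinesin light chains, Kifap3 is the accessory subunit of kinesin-2, Kif1bp is a protein that binds kinesins, Kif16bos is a non-coding gene opposite Kif16b, and Kif4-ps is a pseudogene of Kif4.

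Kinesins are motor proteins that turn ATP into steps along microtubules, mostly toward the fast-growing plus end, and carry vesicles, organelles and protein complexes with them. Some families do other work: kinesin-13 proteins take microtubules apart, C-terminal kinesins walk toward the minus end, and mitotic kinesins build the spindle, move chromosomes and complete cell division. In the testis, meiotic divisions, the manchette that shapes the spermatid head, and the flagellum all rest on microtubules, and kinesin-2 with its accessory subunit drives transport into the growing axoneme. KIF17 is also known in male germ cells as a partner of ACT (Fhl5), the coactivator of the transcription factor CREM.

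Promoter sequences of 38 of the 49 genes were present in the RefSeq table of build GRCm38.p6, which holds 250 bases before and 50 after the annotated start. The promoters of Kif17 and Kif2b are shown because these genes were among the 3 with the highest levels. Capitals mark matches to 4 searched motifs, each sought on both strands. The letters TGACGTCA are the cAMP response element. The letters GTTGCC are an X-box half-site. The letters CCAAT are the CCAAT box. The letters TTTGAA are the cell cycle homology region. None of these strings contains another. Kif17 held a cAMP response element and an X-box half-site, and Kif2b a CCAAT box.
Kif17 promoter, chr4:138262001-138262300, plus strand: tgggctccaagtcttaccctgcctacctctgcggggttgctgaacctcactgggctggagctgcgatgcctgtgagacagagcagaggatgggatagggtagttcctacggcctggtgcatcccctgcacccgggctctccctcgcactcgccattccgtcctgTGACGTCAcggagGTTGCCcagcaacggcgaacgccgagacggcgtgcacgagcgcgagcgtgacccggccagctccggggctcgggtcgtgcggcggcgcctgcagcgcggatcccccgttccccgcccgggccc
Kif2b promoter, chr11:91577506-91577805, minus strand: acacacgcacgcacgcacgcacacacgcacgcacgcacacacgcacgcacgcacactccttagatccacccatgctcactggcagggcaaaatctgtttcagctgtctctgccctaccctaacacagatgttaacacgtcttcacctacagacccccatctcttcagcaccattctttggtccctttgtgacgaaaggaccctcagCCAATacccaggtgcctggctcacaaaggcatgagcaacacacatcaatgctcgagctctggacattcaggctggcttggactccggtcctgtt

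The TTTGAA string was present in 8 of the 9 cell division kinesins with a promoter in the table, and in 14 of the 38 genes, against 17.9% of all 32851 promoters. The 30 bases around the match nearest to the start are shown for those 8 genes, with the match in capitals, because the cell cycle homology region is a known element of genes used in G2 phase and mitosis. In Kif11, Kif15, Kif18b, Kif20b, Kif22, Kif23 and Kif4 the match began between 19 bases before and 19 bases after the annotated start. In Kif2c it began 103 bases before that start. The Kif15 transcript with most reads begins 29805 nt downstream of the annotated start, so the window shown is not at the start of that transcript.
Kif11, chr19:37376351-37376380, plus strand: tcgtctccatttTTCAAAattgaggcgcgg
Kif15, chr9:122951050-122951079, plus strand: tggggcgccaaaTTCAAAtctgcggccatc
Kif18b, chr11:102925104-102925133, minus strand: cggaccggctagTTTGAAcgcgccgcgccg
Kif20b, chr19:34922353-34922382, plus strand: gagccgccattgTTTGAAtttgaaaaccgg
Kif22, chr7:127042420-127042449, minus strand: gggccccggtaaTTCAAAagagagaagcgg
Kif23, chr9:61946780-61946809, minus strand: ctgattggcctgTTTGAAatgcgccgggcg
Kif2c, chr4:117178858-117178887, minus strand: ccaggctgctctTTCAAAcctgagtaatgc
Kif4, chrX:100626072-100626101, plus strand: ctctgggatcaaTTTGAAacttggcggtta
TGACGTCA was found in 4 of the 38 genes (Kif17, Kif18a, Kif5c and Klc1) and in 1.79% of all promoters. The Kif5c transcript with most reads begins far downstream of the promoter searched. GTTGCC was found in 11 of the 38 and in 12.5% of all promoters, and CCAAT in 20 of the 38 and in 37.4%. A match is a run of letters in this window, and no binding was measured.

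Most of these genes were expressed in testis, and their levels ran from 0.0958 FPKM for Kifc5b to 290 for Kif2b, leaving out Kif12. Levels are given in FPKM, fragments scaled by transcript length and library depth, as deposited for each transcript and summed per gene, so that genes of different length can be compared. A mean of 1 FPKM or more over the 12 libraries was reached by 44 of the 49 genes. Their median over all 49 was 7.55 FPKM, against 1.55 for all 24516 genes. The 7 genes at 50 FPKM or more (Kif2b, Kif2c, Kif17, Kif9, Kif27, Kifap3 and Kif2a) held 69.1% of the summed level of the 49, and 5 genes stood below 1 FPKM.

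**Figure D1:**
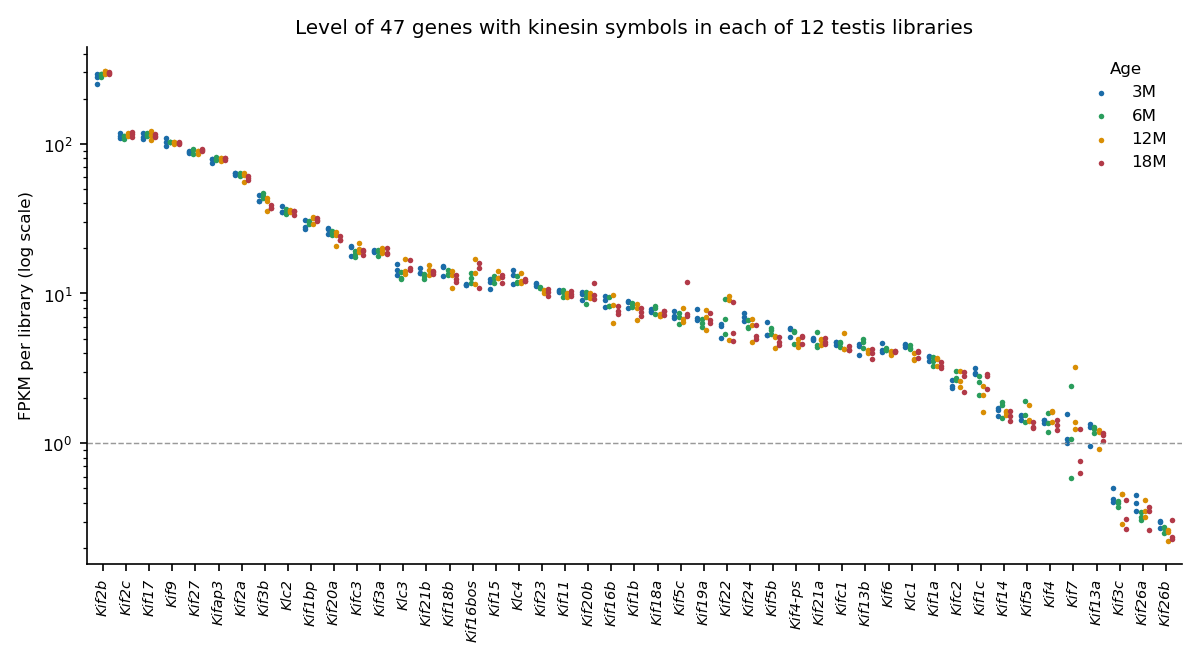
FPKM (log axis) of 47 genes in each of 12 libraries, ordered by mean level and coloured by age, with a dashed line at 1 FPKM. Kif2b stood highest at every age, at 252 to 308 FPKM, and 44 of the 49 genes had a mean of 1 FPKM or more. Kifc5b and Kif12, which were near 0, are not drawn.

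Kif2b, a kinesin-13 encoded by a single exon on chromosome 11 (91575286-91577555, mm10, minus strand), had the highest level of the family and ranked 180 among all genes. Its level was 294, 279 and 252 FPKM at 3M, 292, 277 and 291 at 6M, 308, 291 and 306 at 12M, and 294, 303 and 298 at 18M. The 3M mice covered the widest range, and the highest of them reached the lowest 18M value. It held 23.6% of the summed level and stood 2.55-fold over Kif2c, the next gene. Kif2a, a kinesin-13 that trims microtubules in many tissues, was at 62.9 ± 1.24 FPKM at 3M and 59.0 ± 1.54 at 18M (SD, n = 3). Kif24, a kinesin-13 that acts at the mother centriole, was lower, at 6.96 ± 0.413 and 5.44 ± 0.674 FPKM.

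Kinesin-2 genes were high except for Kif3c. Kif17 (chromosome 4, 138262251-138301973, mm10, plus strand) was at 110, 108 and 117 FPKM at 3M and at 116, 112 and 110 at 18M, and the ages overlapped. Kif3b, a motor chain of the heterotrimer, was at 41.6, 41.5 and 45.2 FPKM at 3M and at 39.0, 37.1 and 37.0 at 18M, so that every 18M mouse lay below every 3M mouse. Its partner chain Kif3a was 2.17-fold lower on average than Kif3b and stood at 19.1 ± 0.320 FPKM at 3M and 19.0 ± 0.937 at 18M. Kifap3, the non-motor subunit of the same heterotrimer, stood at 77.6 ± 2.73 FPKM at 3M and 79.9 ± 1.46 at 18M. Kif3c, the alternative motor chain known from neurons, averaged 0.394 FPKM, and 38.2% of its exon length overlapped an antisense gene, whose reads these unstranded libraries cannot tell apart.

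Among kinesins of the axoneme and cilium, Kif9 and Kif27 were abundant and the others were not. Kif9, a component of motile axonemes, lay between 96.9 and 109 FPKM at 3M and between 100 and 102 at 18M. Kif27, a relative of KIF7 linked to motile cilia, lay at 86.3 to 89.6 FPKM at 3M and at 89.5 to 91.8 at 18M. Kif19a, which limits the length of cilia, averaged 6.78 FPKM, Kif6 averaged 4.16 FPKM and Kif7, a regulator of Hedgehog signalling, 1.35 FPKM.

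Cell division kinesins ranged from Kif4 at 1.42 FPKM to Kif2c at 114. Kif2c, which corrects the attachment of microtubules to kinetochores, was at 113 ± 3.85 FPKM at 3M and 116 ± 3.80 at 18M. Kif20a, needed for cytokinesis, averaged 24.7 FPKM, Kif18b 13.4, Kif15 12.5, Kif23 10.7, Kif11 10.1, Kif20b 9.77, Kif18a 7.55 and Kif4 1.42. Kif23 is the motor of centralspindlin, Kif11 and Kif15 push spindle poles apart, and Kif18a and Kif4 act on chromosome alignment and condensation. Kif22, a chromosome-arm motor, averaged 6.77 FPKM, but 32.8% of its assembled exon length overlapped Maz on the same strand. Kif4-ps stood 3.61-fold over Kif4, and the exons of both share under 1% of their 50-base words (0.272% of those of Kif4), so their reads could mostly be told apart.

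Kinesin-1, the general cargo motor, was carried at low levels in its heavy chains and higher in its light chains. Kif5c averaged 7.48 FPKM, Kif5b 5.25 and Kif5a 1.49. The light chains, which bind cargo, stood at 35.3 FPKM for Klc2, 14.4 for Klc3 (a light chain known from the sperm tail), 12.5 for Klc4 and 4.16 for Klc1. Of the exon length of Klc3, 20.9% overlapped Ercc2 on the opposite strand. C-terminal motors ranged from Kifc3 at 19.3 FPKM to Kifc5b at 0.0958. Kifc1, a motor of the spindle and of spermatid shaping, averaged 4.56 FPKM, and 38.6% of its 50-base words also occurred in Kifc5b, so that the values of both are uncertain. Kinesin-3 genes, most of which carry vesicles over long distances while Kif14 acts in cytokinesis, lay between 1.16 FPKM for Kif13a and 8.39 for Kif16b. Kif12 had 0 reads in 10 of the 12 libraries and at most 3 in any, so that it was not detectable at this depth.

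The summed share of all gene-assigned reads in the 49 genes was close at all ages. The 3M mice had 0.4893% ± 0.0021 and the 6M mice 0.4938% ± 0.0079, whereas the 12M mice had 0.4927% ± 0.008 and the 18M mice 0.4857% ± 0.0036 (SD, n = 3). In bulk testis, fewer cells of a type and less RNA per cell cannot be told apart, and this holds for every difference below.

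No kinesin gene passed the test in any comparison of ages. The test was the quasi-likelihood test of edgeR on reads summed per gene. A gene was called when its p, adjusted over all genes by Benjamini and Hochberg, was at most 0.05, and pairs of ages also required that the log2 change reach 1 in size. Between 3M and 18M, 0 of 48 tested genes were called, against 0.0496% of all 18130 genes tested. In the slope on age in months over all 12 libraries, 0 of 48 were called, against 0.414% of 18367 genes. Over all genes the number called in the slope, 76, ran from 18 (0.0973%, without the third 18M mouse) to 197 (1.06%, without the first 18M mouse) when 1 library was left out, and no kinesin gene was called in any of these fits. Between 3M and 6M 0 of 47 were called (0.0331% of all genes), between 6M and 12M 0 of 47 (0.0441%) and between 12M and 18M 0 of 48 (0.0220%). Without the fold minimum the count between 3M and 18M was also 0, against 0.0662% of all genes. With DESeq2 the pairwise counts were again 0, and 1 gene, Kif1c, was called in the slope, against 3.14% of all genes. The precision of these fits was high for most members: the 95% interval of the log2 change from 3M to 18M had a median half-width of 0.171, and it was under 1 for 47 of the 48 genes and under 0.5 for 46.

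Differences that missed the threshold lay below 0 more often than above it between 3M and 18M, by an extent that depended on 1 library. Between 3M and 18M, 11 of 48 genes had an unadjusted p of 0.05 or less, all of them lower at 18M, which is 22.9%, against 13.5% of all genes at that p, 7.25% lower and 6.28% higher. This count was 6, all lower, with the mouse number as a block. It was 4 without the second 3M mouse, 5 without the second 18M mouse and 4 without the third 18M mouse, again all lower. It was 13 without the first 18M mouse, 11 lower and 2 higher, and 10 with all 12 libraries in the fit, 8 lower and 2 higher. The log2 change was below 0 in 34 of 48 genes (70.8%), against 50.4% of all genes, and its median was -0.0721, against -0.0019. Without the first 18M mouse it was below 0 in 27 of 48 genes, and without any other single library in 30 to 35. In the slope, 11 of 48 genes had an unadjusted p of 0.05 or less, 9 lower and 2 higher with age, which is 22.9% against 17.5% of all genes, 9.60% lower and 7.87% higher. The slope was below 0 in 31 of 48 genes (64.6%), against 51.3%. The 18M mice did not overlap the 3M mice in 14 of 48 genes, 12 lower and 2 higher (Kif27 and Kif1bp), against 20.5% of all genes with a mean of 10 reads or more, 11.0% lower and 9.52% higher. The 49 genes share the same 6 or 12 libraries, so these counts are not counts of independent events. Shares over all genes at an unadjusted p are given for the main fit only. A count that moved in another fit may therefore have moved over all genes too. Antisense genes overlapped 16.9% of the exon length of Kif1bp and 7.44% of that of Kif27, and these unstranded libraries cannot tell their reads apart.

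**Figure D2:**
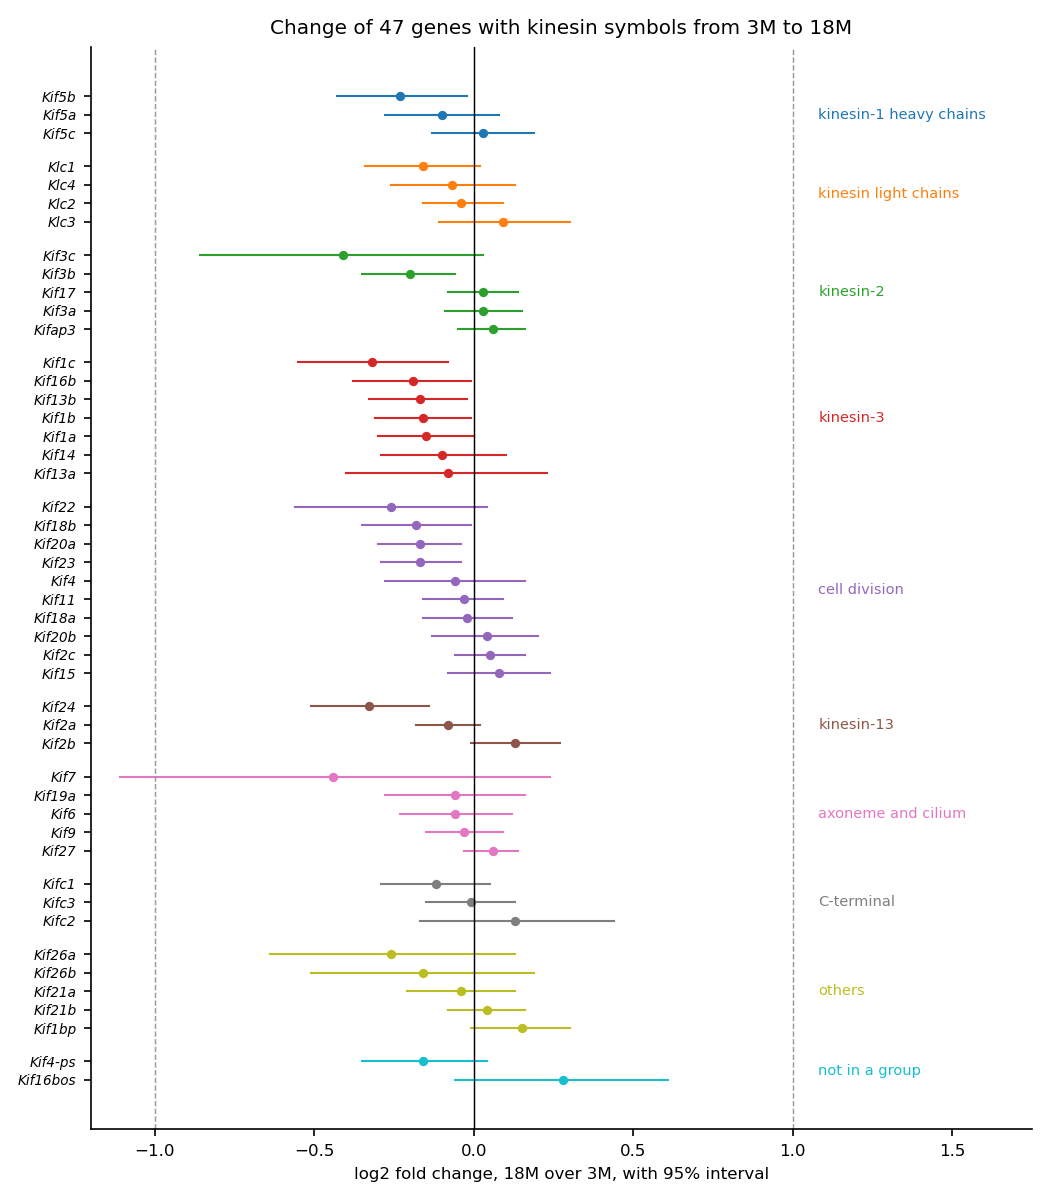
Log2 fold change of 47 genes from 3M to 18M with its 95% interval from edgeR, grouped by role, with dashed lines at the fold minimum of 1. Points of all 7 kinesin-3 genes lie left of 0, and no point reaches either dashed line. Kifc5b, whose interval ran from -2.48 to 1.77, is not drawn.

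Kinesin-3 was the group in which every member lay on one side. All 7 genes (Kif1a, Kif1b, Kif1c, Kif13a, Kif13b, Kif14 and Kif16b) had a log2 change below 0 from 3M to 18M, with a median of -0.160. An unadjusted p of 0.05 or less was reached by 5 of them, against 13.5% of all genes, 7.25% lower. Each of these 5 lost that p without 1 library. The highest p in edgeR was then 0.17 for Kif1a, 0.12 for Kif1b, 0.06 for Kif1c, 0.11 for Kif13b and 0.13 for Kif16b. Without the third 3M mouse Kif13a stood at 0.01, so that not all 7 lay below 0. Their summed level was 29.4 to 32.6 FPKM at 3M and 26.9 to 29.3 at 18M. Kif1c, which carries vesicles toward cell margins, was measured in CPM, the TMM-normalized counts scaled to library size, with 15.4, 18.4 and 16.4 at 3M, 18.0, 16.1 and 19.0 at 6M, 12.3, 14.9 and 12.2 at 12M, and 14.5, 12.1 and 13.6 at 18M. In CPM every 12M and 18M mouse lay below every 3M and 6M mouse. In FPKM, which divides each transcript by its own length, the order of the ages differed. Kif1c lay between 2.88 and 3.20 FPKM in the 3M mice and between 2.11 and 2.81 in the 6M mice. It lay between 1.61 and 2.41 in the 12M mice and between 2.31 and 2.92 in the 18M mice. The 3M mice thus lay above every 6M and 12M mouse but overlapped the 18M mice. The 18M mean of 2.68 was above the 6M mean of 2.49. Its log2 slope was -0.028 ± 0.0077 per month (SE), which is -0.42 over 15 months with a 95% interval of -0.67 to -0.17 (adjusted p = 0.12 in edgeR). Leaving out 1 library at a time gave adjusted p values from 0.084 to 0.28 for this slope in edgeR. Its step from 6M to 12M was -0.42 ± 0.11 on the log2 scale, with an unadjusted p of 0.0058 and an adjusted p of 0.50 in edgeR. Kif13b, known for transport of growth factor receptors, was at 36.3 ± 1.96 CPM at 3M and 32.1 ± 1.78 at 18M (SD, n = 3), and its slope had an adjusted p of 0.17 in edgeR. Kif1b, Kif16b and Kif1a differed from 3M to 18M by -0.16, -0.19 and -0.15 on the log2 scale.

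**Figure D3:**
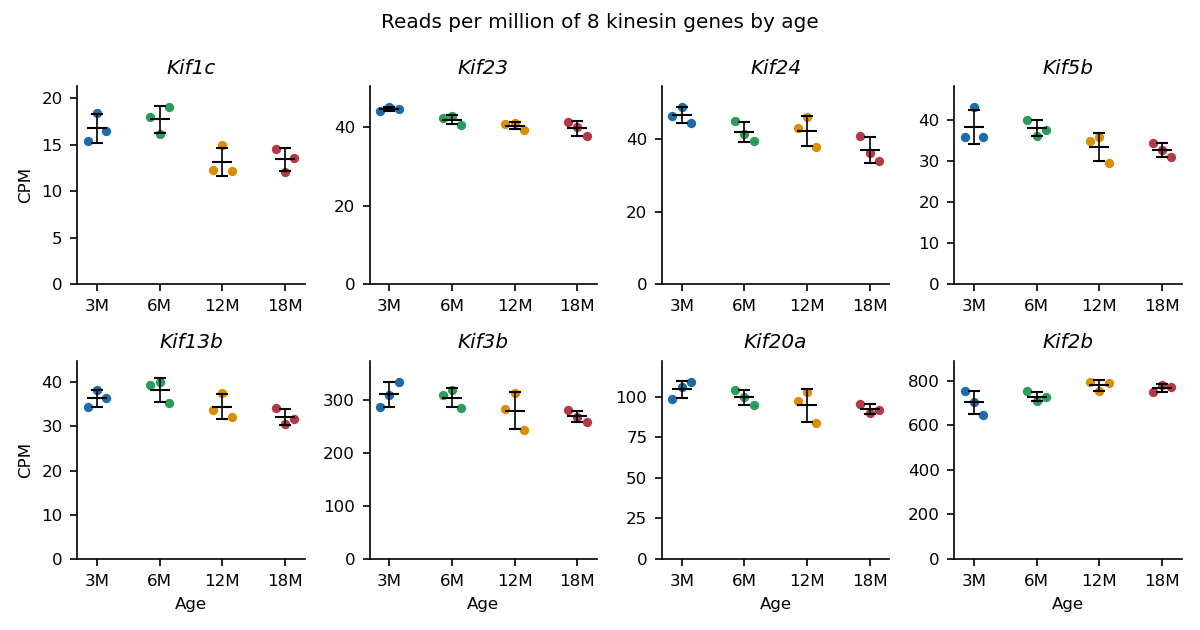
TMM-normalized CPM of 8 genes by age, with 1 point per mouse and a bar at the mean ± SD of 3 mice, on axes that start at 0. The first 7 panels show the genes with the lowest p in the slope or between 3M and 18M and the last shows Kif2b, the most abundant gene. For Kif24 the 18M mice at 34.0 to 41.0 CPM lie below the 3M mice at 44.4 to 48.8.

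Kif24 had the lowest p between 3M and 18M. It was at 46.4, 48.8 and 44.4 CPM at 3M, 44.9, 41.4 and 39.5 at 6M, 43.0, 46.1 and 37.8 at 12M, and 41.0, 36.2 and 34.0 at 18M. No 18M mouse reached the 3M range, whereas 6M and 12M covered the ground between them. The log2 change was -0.33 ± 0.079 (SE), with a 95% interval of -0.51 to -0.14 and an adjusted p of 0.29 in edgeR. Reads of Kif24 can include those of Ubap1, which overlaps 10.1% of its exon length on the opposite strand. Of the 50-base words of Kif24, 5.03% also occurred in other genes. For the other kinesin-13 genes the log2 change was -0.08 ± 0.042 for Kif2a, 0.13 ± 0.058 for Kif2b and 0.05 ± 0.047 for Kif2c, which is a kinesin-13 counted here with the cell division genes. Differences among these genes were not tested. The slope of Kif2b was 0.009 ± 0.0033 log2 units per month, with an adjusted p of 0.20 in edgeR.

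In kinesin-1, Kif5b, the heavy chain found in most tissues, was at 36.0, 43.2 and 35.9 CPM at 3M and at 34.5, 32.8 and 31.1 at 18M, without overlap. Its slope corresponded to -0.26 over 15 months (95% interval -0.43 to -0.08, adjusted p = 0.16 in edgeR). Kif5c and Kif5a differed from 3M to 18M by 0.03 ± 0.068 and -0.10 ± 0.077. Of the light chains, Klc1 was at 12.4 ± 0.260 CPM at 3M and 11.1 ± 0.617 at 18M, and the log2 changes of Klc2, Klc3 and Klc4 were -0.04 ± 0.054, 0.09 ± 0.088 and -0.07 ± 0.084.

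None of the 5 kinesin-2 genes was called. Kif3b was at 287, 309 and 333 CPM at 3M and at 280, 267 and 258 at 18M, so that the ranges were separate by a small gap. Its log2 change was -0.20 ± 0.064 (95% interval -0.35 to -0.06, adjusted p = 0.30 in edgeR). For Kif17 the change was 0.03 with an interval of -0.08 to 0.14, for Kif3a 0.03 with an interval of -0.09 to 0.15, and for Kifap3 0.06 with an interval of -0.05 to 0.16. Changes as large as the fold minimum lay outside these 3 intervals. Kif3c, at under 1 FPKM, had the change farthest from 0 in the group, -0.41 ± 0.189 with an interval of -0.86 to 0.03. Differences among the 5 genes were not tested.

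Of the 10 cell division kinesins, 7 had a log2 change below 0 from 3M to 18M, against 50.4% of all genes. An unadjusted p of 0.05 or less was reached by 3, all lower, against 13.5% of all genes, 7.25% lower. These 3, Kif18b, Kif20a and Kif23, each lost that p without 1 library, with p up to 0.12, 0.064 and 0.067 in edgeR. Kif23 was at 44.1, 45.1 and 44.7 CPM at 3M, 42.3, 42.8 and 40.7 at 6M, 40.8, 41.0 and 39.4 at 12M, and 41.4, 40.0 and 37.7 at 18M. Every mouse of the 3 later ages lay below every 3M mouse. Its slope corresponded to -0.16 over 15 months (95% interval -0.25 to -0.06, adjusted p = 0.14 in edgeR). Kif20a was at 98.4, 106 and 109 CPM at 3M and at 95.8, 90.2 and 91.6 at 18M, again without overlap (log2 change -0.17 ± 0.056, adjusted p = 0.30 in edgeR). Reads of Kif20a can include those of Cdc23, which overlaps 27.4% of its exon length on the opposite strand. Kif18b differed by -0.18 ± 0.073, Kif22 by -0.26 ± 0.129 with an interval of -0.56 to 0.04, and Kif4 by -0.06 ± 0.094, while Kif11, Kif18a, Kif20b, Kif2c and Kif15 lay between -0.03 and 0.08. The summed level of the 10 genes was 212 ± 3.03 FPKM at 3M and 210 ± 4.59 at 18M. The proliferation markers Mki67, Top2a, Pcna and Ccnb1 summed to 131 to 134 FPKM at 3M and 130 to 133 at 18M, with 0 of 4 called.

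Kif7 and Kif22 had the widest spread between mice of one age among genes over 1 FPKM. Kif7 reached 7.53 CPM in the highest 3M mouse, stood at 11.5, 4.17 and 2.97 at 6M and at 6.73, 5.43 and 15.6 at 12M, and lay between 2.88 and 5.44 at 18M. A single mouse each at 6M and 12M stood high. The change from 12M to 18M was -1.19 ± 0.42 on the log2 scale (adjusted p = 1.0 in edgeR), and without the third 12M mouse it was -0.59. In that library, 703 reads belonged to an assembled transcript of 2 exons that overlaps exons of Kif7 and held at most 189 in any other library. An antisense gene overlaps 26.3% of the exon length of Kif7. Kif22 reached 65.1 CPM in 1 mouse at 6M and 58.8 in 1 at 12M, against 27.5 to 41.7 in the other 10 libraries. The step from 6M to 12M gave unadjusted p values of 0.05 or less for 3 of 47 genes, Kifc3 (0.16), Klc1 (-0.20) and Kif1c, against 8.72% of all genes, and that from 12M to 18M for 1 of 48, Kif7, against 3.52% (0.418% with the fold minimum), and these 4 genes were named after their values were seen. Between 3M and 6M no kinesin gene reached this p, against 3.96% of all genes.

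The 11 genes with lower values at 18M at an unadjusted p of 0.05 had longer main transcripts. The transcript with most reads had a median length of 5937 nt in them (3336 to 9850 nt), against 3876 nt in the other 37 tested genes (495 to 9119 nt). The part of transcript length in the differences was not tested. Among libraries, the third 12M mouse held the lowest CPM in 10 of 48 genes and the highest in 8, more than any other library in the first count. Leaving it out gave 13 genes with an unadjusted p of 0.05 or less in the slope, 11 lower and 2 higher, against 11 with all libraries. The same count of 13 came without the third 6M mouse and without the second 12M mouse. Over all fits with 1 library left out, the count ran from 9 to 15. The share over all genes in these fits is not given, so a shift of the count cannot be assigned to the kinesin genes.

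The transcript with most estimated reads was not always an annotated one. Of 33 member genes with at least 2 transcripts, 16 had as their main transcript one assembled by the authors that bears no RefSeq identifier. This share was not counted over all genes. For Kif17, an assembled transcript of 15 exons and 3737 nt (138262429-138301973), which starts 178 nt downstream of the RefSeq start, held 84.0% of the reads of the gene on average, between 81.6% and 85.4% in the 12 libraries. The RefSeq transcript held 1.20%. The promoter of Kif17 shown above is that of the RefSeq start, and the main transcript begins after its last base.

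Kif1a, a kinesin-3 known for axonal transport of synaptic vesicles, was read almost entirely from a start inside the gene. The main transcript begins 30672 nt downstream of the farthest RefSeq start and 11278 nt downstream of the nearest, has 38 exons against 48 or 47, and held 98.5% to 99.6% of the reads in every library. Of the exons of the RefSeq transcript with 48 exons, 36 are identical in it. Kif5c showed the same arrangement, with a main transcript of 19 exons that begins 78987 nt downstream of the RefSeq start and held 76.1% of the reads on average. In 1 mouse at 18M its share was 10.3%, and 1911 reads were given there to another assembled transcript, which held at most 7 reads in any other library. Kifap3 was read mainly from an upstream start, at -17502 nt from the annotated one, in a transcript that shares 19 of 20 exons with a RefSeq transcript and held 83.6% of the reads. Starts and ends of assembled transcripts were inferred by the assembler from read coverage, and no cap-based measurement was made.

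**Figure D4:**
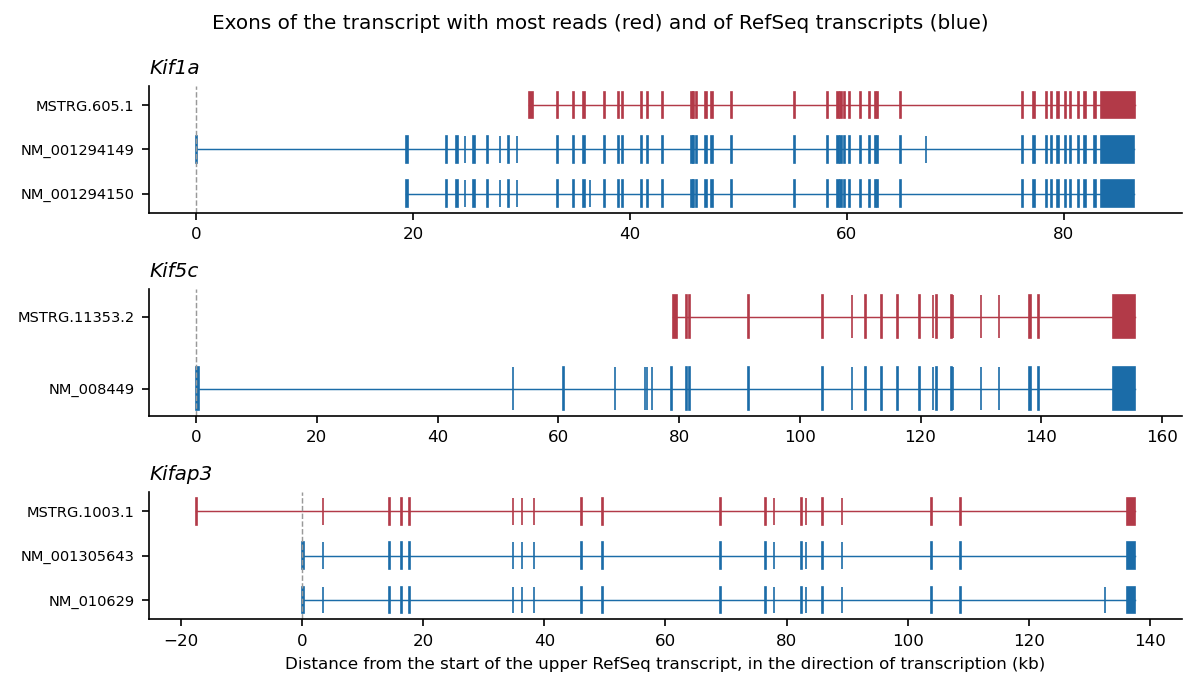
Exons (boxes) and introns (lines) of the transcript with most reads (red) and of up to 2 RefSeq transcripts (blue) for Kif1a, Kif5c and Kifap3, against the distance in kb from the start of the upper RefSeq transcript. The red transcript begins 30672 nt downstream for Kif1a, 78987 nt downstream for Kif5c and at -17502 nt for Kifap3.

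At the level of transcripts, 1 of 143 kinesin transcripts tested was called between 3M and 18M, against 0.108% of all 54472 transcripts, and 0 of 146 in the slope, against 0.00881% of 56784. The called transcript was an assembled form of Kif21b, a kinesin-4 that carries receptors and limits microtubule growth, of 36 exons and 12895 nt, which begins 8685 nt downstream of the RefSeq start. It held 3, 1 and 1 reads in the 3 mice at 3M, 1, 1046 and 5 at 6M, 1347, 1 and 11 at 12M, and 1226, 1169 and 1849 at 18M. It was thus high in every 18M mouse, in 1 mouse at 6M and in 1 at 12M, and near 0 in the other 7 libraries. Over the 3M libraries it had 5 reads and over the 18M libraries 4244, a ratio of 784 per library read. The exact 95% interval of 336 to 2415 treats these estimated, rounded-up values as counted reads. It covers neither the spread between mice nor the division of reads among transcripts. The transcript was picked for this interval because it was called. The adjusted p of the called transcript was 0.029 in edgeR. It ranged from 0.033 to 0.099 without 1 library at a time, and 5 of the 6 libraries left out ended the call. With the mouse number as a block the adjusted p was 0.83. At an unadjusted p of 0.05 or less, 10 of 143 transcripts passed between 3M and 18M without the fold minimum (against 5.40% of all transcripts), 5 with it (against 2.57%), and 14 of 146 in the slope (against 6.99%).

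The gene as a whole did not follow this transcript. Kif21b summed over its transcripts was at 135, 139 and 126 CPM at 3M and at 133, 137 and 140 at 18M, a log2 change of 0.04 ± 0.053 with an interval of -0.08 to 0.16. In libraries where the called transcript was high, 2 related assembled transcripts were lower: one held 28.1%, 25.8% and 20.3% of the reads of the gene at 3M and 8.87%, 6.33% and 9.30% at 18M, and the other held 22.0%, 18.9% and 19.7% at 3M and 12.8%, 11.3% and 8.40% at 18M. The RefSeq transcript held 37.8% to 45.0% at 3M and 47.4% to 53.8% at 18M. These transcripts share most exons, and the assembler divides the reads of shared exons among them.

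**Figure D5:**
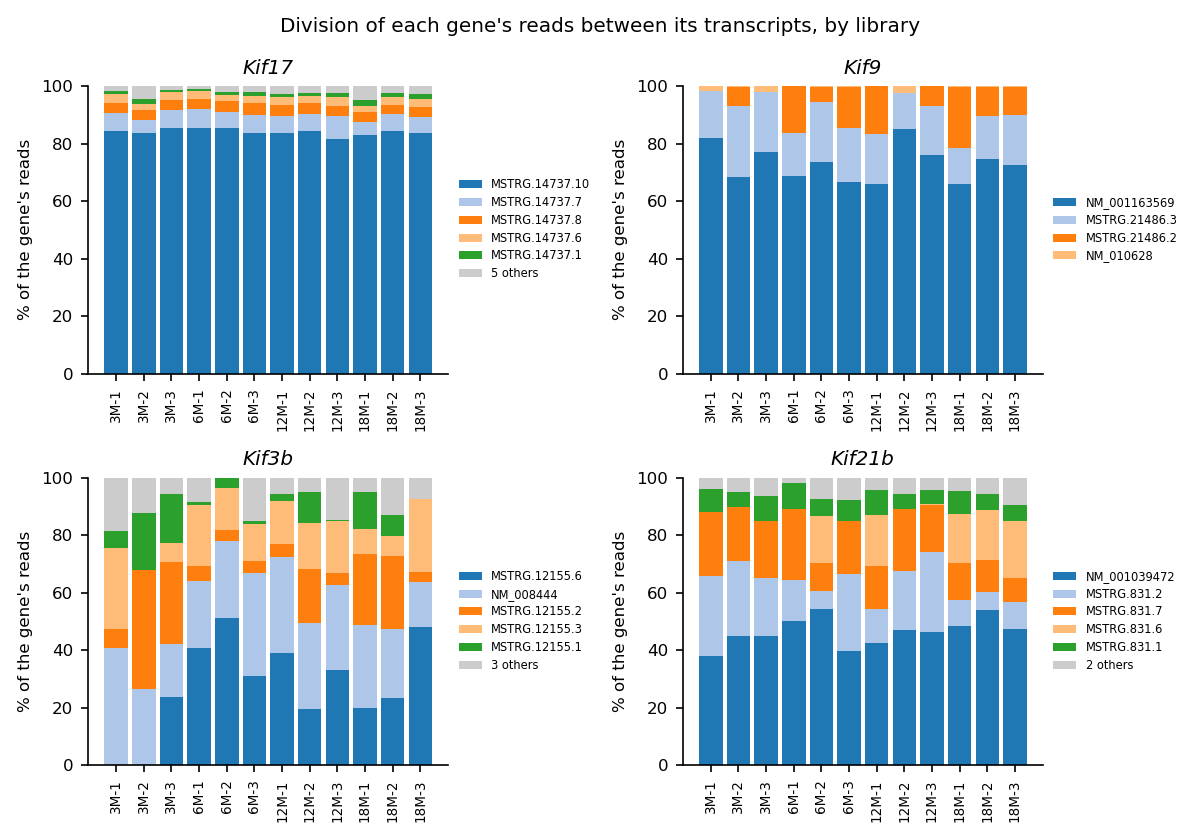
Share of reads (%) of each of the 5 transcripts with most reads in Kif17, Kif9, Kif3b and Kif21b, with the remaining transcripts in grey, in each of 12 libraries. The main transcript of Kif17 holds 81.6% to 85.4% everywhere, while that of Kif3b runs from under 1% to 51.1% between libraries.

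Such shifts of estimated reads between transcripts occurred also among mice of one age. In 17 of the 49 genes, 25 transcripts had 0 reads in some library and over 100 in another. The share over all genes was not counted. The main assembled transcript of Kif3b had 3, 1 and 4291 reads in the 3 mice at 3M, and one assembled transcript of Kif9 had 0, 1322 and 0 there and 4217, 1889 and 2539 at 18M. The share of the main transcript of Kif3a, which held 41.8% of its reads on average, ran from 17.3% to 90.2%. By contrast, Kif2b, Kif27, Kif16b, Kif18b, Kif5b and Klc4 each had a single transcript, and their transcript and gene values are the same measurement.

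Adaptors and partner motors were followed in the same fit, from a list of 36 genes that hold kinesin adaptors, kinesins with other symbols, cytoplasmic dynein (the minus-end motor) and dynactin, its activator. Of these, 35 were measured, and 0 were called in the slope and 0 between 3M and 18M. In the slope, 13 of 35 had an unadjusted p of 0.05 or less, 10 lower and 3 higher with age (37.1%, against 17.5% of all genes), and between 3M and 18M 9 of 35, 8 lower and 1 higher (25.7%, against 13.5%). Trak1, an adaptor that links kinesin-1 to mitochondria, was at 9.61 ± 0.628 FPKM at 3M and 8.71 ± 0.424 at 18M, with a slope of -0.017 ± 0.0039 per month and an adjusted p of 0.091 in edgeR. With DESeq2 it was the 1 gene of the list called in the slope, against 3.14% of all genes. Dync1h1, the dynein heavy chain, was at 53.6 ± 4.97 FPKM at 3M and 43.4 ± 4.96 at 18M (adjusted p = 0.19 for the slope in edgeR). Cenpe, the kinetochore kinesin with another symbol, differed by -0.17 on the log2 scale between 3M and 18M. Crem and Actr10 had slopes of 0.008 each, with adjusted p values of 0.18 and 0.16 in edgeR. Fhl5, the partner of KIF17, was at 151 ± 16.0 FPKM at 3M and 169 ± 6.01 at 18M.

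Cell type markers were measured beside these genes. Leydig cell markers summed to 967 to 1118 FPKM at 3M and 681 to 941 at 18M, and 3 of 6 (Cyp11a1, Cyp17a1 and Lhcgr) passed the slope test, all lower. In the lists of spermatogonia, spermatocytes, round spermatids, elongating spermatids, Sertoli cells, peritubular myoid cells, macrophages, endothelium and neurons, 0 genes were called in the slope or between 3M and 18M. Spermatocyte markers summed to 438 to 466 FPKM at 3M and 432 to 446 at 18M, round spermatid markers to 874 to 1011 and 1022 to 1043, and elongating spermatid markers to 25487 to 28022 and 26046 to 30814. Spermatogonia markers summed to 46.9 to 51.9 and 46.2 to 52.2 FPKM, Sertoli cell markers to 451 to 479 and 454 to 469, peritubular myoid markers to 21.2 to 24.1 and 18.3 to 22.3, macrophage markers to 4.52 to 5.12 and 3.44 to 4.63, endothelial markers to 2.30 to 2.53 and 1.85 to 2.29, and neuronal markers to 16.6 to 20.3 and 16.7 to 19.4. The 3M and 18M ranges overlapped in all lists except round spermatids, Leydig cells and endothelium. In the neuronal list (Tubb3, Snap25 and Syp), Snap25 averaged 0.0144 FPKM, so the summed level came almost entirely from the other genes. The part of cell composition in the kinesin values was not tested.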

How the data were processed

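Total RNA of whole testes, depleted of ribosomal RNA, was sequenced in paired-end libraries without strand information, with replicate number and age taken from the labels. Read alignment by the authors used HISAT2 and the mm10 build, and StringTie 1.3.3b assembled and quantified transcripts. The deposited counts are estimated counts per transcript (coverage times length over the read length of 101, rounded up), and FPKM, also deposited by the authors, divides fragments by transcript length and library depth. Reads of shared exons are divided among transcripts by the assembler. The members, role groups and lists were chosen with earlier results of these data known. Estimated counts were summed per symbol over transcripts of class =, c, j or o, which left out 15 transcripts of class i or x, and 94.3% to 95.0% of all reads were in such sums. Sums and transcripts were tested with edgeR 4.0.16 (TMM, filterByExpr, quasi-likelihood test, Benjamini-Hochberg over the whole table) in R 4.3.3, with the libraries of both ages in each pairwise fit and all 12 in the slope, and the method was tested on simulated data with 200 changed genes. DESeq2 1.42.0, library size alone, DESeq2 size factors, no filter, all classes, a replicate block, all 12 libraries in pairwise fits, unadjusted p, no fold minimum and each library left out were the alternatives. Named genes were the 12 highest by FPKM, those called, the 5 with the lowest p in the slope and between 3M and 18M, germ cell and cell division members, and their main transcripts. Other members given with values were chosen after their values were seen. Overlaps used GENCODE vM21, and promoters RefSeq GRCm38.p6. The labels give an age and a replicate number. The study names 3 biological replicates, which were taken here as separate mice. Intervals on reads treat estimated counts as counted reads, and do not cover the spread between mice.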

Additional observations from a re-analysis of the deposited data

Results flagged for a closer look

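The rule on transcript classes left out 15 transcripts that carry a kinesin symbol, 8 within introns (class i) and 7 on the opposite strand (class x). Of these, 13 had more than 3 reads, the limit that a count of 0 allows, in every library and so hold signal outside the gene sums. Within introns, the mean over 12 libraries was 344 and 104 reads for a pair of transcripts in Kif6, 255 reads in Kif26b, 234 in Kif3b, 228 in Kif5c, 178 in Kifc3 and 174 in Klc4. On the opposite strand it was 270, 222 and 154 reads for the transcripts at Kif27, 146 at Kif22, 50.2 at Kif15 and 26.8 at Kif7. The libraries do not record strand.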

How the results depend on the processing

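No kinesin gene was called in any pairwise comparison of gene sums under any of the alternatives with an adjusted p, leaving out each library included. With unadjusted p values in place of adjusted ones, 1 gene passed between 12M and 18M, 11 in the slope on age, 5 transcripts between 3M and 18M, 14 transcripts in the slope and 13 genes of the adaptor and partner list in the slope. DESeq2 called 1 of 48 kinesin genes (Kif1c, -0.028 per month) and 1 of 35 partner genes in the slope, against 3.14% of all genes. Between 3M and 18M it called 3 of 143 kinesin transcripts (2.10%), against 1.73% of all transcripts. The count of called transcripts between 3M and 18M was 0 with the replicate block and ran from 0 to 1 when 1 library was left out. For the called Kif21b transcript the fitted log2 values were 9.57 with the block and 9.21 to 10.20 without 1 library. With all classes of transcripts summed, the change from 3M to 18M of Kif26b became 0.04, its slope 0.003 and the slope of Kif6 0.007, all from values below 0 in the reported sums. The added intron transcripts are a part of these sums by construction. The share of reads in kinesin genes at 3M was 0.485% with all classes. Of 624 single values between 3M and 18M, 25 in 16 genes had another sign but lay under their own SE in the reported fit, and 24 of 864 in 8 genes for the slope. The labels do not say whether mouse numbers pair the samples, and with 3 mice per age the correlations cannot decide it. Same-number deviations correlated from -0.054 to 0.155 with a median of -0.008, 1 of 18 over 0.1. Other-number deviations correlated from -0.158 to 0.097 with a median of 0.004. Of the 12 libraries, 5 were most like their own number. The block changed no other call among kinesin genes, and over all genes it moved the slope calls from 76 to 42. Depth limits Kif12, at most 3 reads in any library, and Kifc5b, whose 95% interval runs from -2.48 to 1.77.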
